A study of Mus musculus with 12 samples.

Results

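Carboxylesterases are serine hydrolases of the endoplasmic reticulum that cut ester and amide bonds in drugs, in xenobiotics and in neutral lipids. In mouse liver they are encoded by the Ces1, Ces2 and Ces3 families, which lie in tandem clusters. Some members take part in the mobilisation of stored triacylglycerol for very low density lipoprotein (VLDL), and several are known targets of xenobiotic-sensing nuclear receptors. The aryl hydrocarbon receptor (AhR, gene Ahr) is a ligand-activated transcription factor that pairs with ARNT and controls other enzymes of drug metabolism. Transcripts of 10 carboxylesterase genes, chosen by name (Ces1c, Ces1d, Ces1e, Ces1f, Ces1g, Ces2a, Ces2c, Ces2e, Ces3a and Ces3b), were followed across 12 livers. They are 10 of the 27304 genes of the count table, and 10 of the 19 whose symbols start with Ces.

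The livers came from 4 groups of 3 mice: Apoe-/-AhR-/- males, Apoe-/- control males, Apoe-/-AhR-/- females and Apoe-/- control females. The Apoe-/-AhR-/- livers are called Ahr-null here and the Apoe-/- livers controls. Every mouse, controls included, lacked Apoe, which encodes the main ligand of remnant lipoprotein clearance, and every mouse ate a high-fat diet for 12 weeks. The design therefore sets the loss of Ahr against its presence only in Apoe-deficient, fat-fed mice. The labels name no allele, and no age other than the time on the diet.

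All 10 genes are protein-coding and lie on mouse chromosome 8 (GRCm38). The Ces1 genes are on the minus strand: Ces1c at 93099015 to 93131283, Ces1d at 93166068 to 93197838, Ces1e at 93201218 to 93229619, Ces1f at 93256236 to 93279747 and Ces1g at 93302369 to 93337308. The Ces2 genes are on the plus strand, Ces2a at 104734003 to 104741634, Ces2c at 104847068 to 104854483 and Ces2e at 104926260 to 104934672. They are followed on the same strand by Ces3a at 105048601 to 105058413 and Ces3b at 105083753 to 105093929. Coding sequences were 74.6% to 81.5% identical among the 10 Ces1 pairs, 83.0% to 84.0% among the 3 Ces2 pairs and 62.3% to 65.9% in the 31 pairs between families.

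Ces3a and Ces3b were 95.3% identical. Their longest identical coding run, 194 bases in the GENCODE M21 transcripts, is shown because a read inside it cannot be assigned to one gene by its sequence:
Ces3a and Ces3b: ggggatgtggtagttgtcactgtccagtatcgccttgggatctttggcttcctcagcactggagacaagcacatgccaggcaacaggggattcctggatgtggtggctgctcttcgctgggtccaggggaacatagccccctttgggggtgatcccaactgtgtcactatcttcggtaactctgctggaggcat
Of all 50-base windows of a gene's exons, 25.6% in Ces3a and 26.2% in Ces3b also occurred in the other gene. The share found in any other gene was 36.1% for Ces2c, with 32.7% in the pseudogene Ces2d-ps alone. It was 17.3% for Ces2a, with 16.3% in Gm7208, and 13.0% for Ces1c, with 8.18% in Ces1b. It was between 0.903% and 3.30% for Ces1d, Ces1e, Ces1f, Ces1g and Ces2e. No source used here says how the authors' counting treated such reads, and counts of the first 5 genes named are uncertain to that extent. Ces1d also overlaps Gm45909 on its own strand, and Ces3a overlaps Gm45724 on the other strand.

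Upstream sequences were taken from RefSeq (GRCm38.p6), which held 7 of the 10 genes. The 250 bases before the RefSeq start are shown for Ces1e and Ces1g, genes whose levels differed between genotypes in the smaller set of libraries described further on, and for Ces2a, the gene with a motif match (capitals):
Ces1e (chr8:93229620-93229869, minus strand): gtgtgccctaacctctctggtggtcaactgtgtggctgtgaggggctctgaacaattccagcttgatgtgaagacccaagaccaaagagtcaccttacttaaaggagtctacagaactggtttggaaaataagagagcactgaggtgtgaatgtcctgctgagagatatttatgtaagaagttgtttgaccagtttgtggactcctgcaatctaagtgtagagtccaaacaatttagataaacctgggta
Ces1g (chr8:93337210-93337459, minus strand): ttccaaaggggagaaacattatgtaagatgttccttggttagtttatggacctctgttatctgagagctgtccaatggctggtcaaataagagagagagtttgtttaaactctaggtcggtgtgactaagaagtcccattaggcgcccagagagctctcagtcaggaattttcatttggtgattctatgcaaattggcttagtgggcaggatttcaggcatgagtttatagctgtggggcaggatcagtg
Ces2a (chr8:104733753-104734002, plus strand): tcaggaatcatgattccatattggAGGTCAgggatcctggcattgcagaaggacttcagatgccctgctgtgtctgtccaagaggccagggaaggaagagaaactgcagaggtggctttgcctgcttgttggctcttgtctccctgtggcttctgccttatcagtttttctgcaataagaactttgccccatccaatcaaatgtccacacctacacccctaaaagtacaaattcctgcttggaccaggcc
The RefSeq start of Ces1g lies inside the gene as GENCODE places it, so that 99 bases of its window fall within the coordinates given above. The motifs were searched on both strands, each counted separately where matches overlap. GCGTG, the core bound by AhR with ARNT, occurred in 0 of the 7 windows and in 28.2% of 32851 RefSeq windows of that length. AGGTCA, the core of nuclear receptor elements, occurred in 1 of 7, in Ces2a at 226 bases before the start, and in 14.0% of all windows. TTCNNNGAA, the STAT element, occurred in 0 of 7 and in 7.02% of all windows.

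Libraries held 9794253 to 18924880 counts. In CPM, the unit of counts scaled to a common library total, 1 count was worth 0.0528 to 0.102 before further scaling between libraries. Levels of single genes are given in CPM after that further scaling, and marker sums without it. The lowest count of any of the 10 genes in any library was 99. Ahr averaged 22.8 ± 2.33 CPM in Ahr-null males and 20.2 ± 4.81 CPM in control males (SD, n = 3 each). It averaged 16.5 ± 2.89 CPM in Ahr-null females and 15.6 ± 3.76 CPM in control females, and a count over the whole gene does not check the genotype. Counts from mitochondrial genes made up 30.4% to 59.8% of the Ahr-null and 46.7% to 69.8% of the control libraries. A hepatocyte list, with 7 of 8 markers found in the table, summed to 26588 to 79909 CPM in Ahr-null and 11569 to 26808 CPM in control livers without scaling between libraries. None of those 7 was at 0 in any library. A list of 6 stellate cell markers summed to 252 to 1187 CPM in Ahr-null and 208 to 385 CPM in control livers, and one of 6 lymphocyte markers to 4.54 to 15.7 CPM in Ahr-null and 1.21 to 6.70 CPM in control livers. Kupffer cell markers (6) summed to 185 to 449.6 CPM in Ahr-null and 116 to 283 CPM in control livers, and cholangiocyte markers (5) to 41.3 to 289 CPM in Ahr-null and 21.2 to 68.4 CPM in control livers. A list of 25 neuron and glia genes had a sum of 709 CPM in replicate 1 of the Ahr-null females and of 321 CPM in replicate 1 of the control males. Its sum lay between 61.5 and 108 CPM in the remaining 10 libraries, where up to 8 of its genes were at 0. The highest hepatocyte, stellate cell and cholangiocyte sums were also those of Ahr-null female replicate 1. The next highest Ahr-null sums of those lists were 60422, 688 and 125 CPM. After TMM scaling, the scale of all tests, the median averaged log2 fold change was 0.35 over the 7 hepatocyte markers, 2 of them negative, 0.36 over the stellate and 1.23 over the lymphocyte markers. It was 0.10 over the Kupffer cell and 0.62 over the cholangiocyte markers. Of the markers in these lists edgeR called 1, the macrophage receptor gene Marco, higher (2.16 ± 0.34, SE; adjusted p = 0.0148), named after its values were seen. Fits without the 2 libraries high in neural transcripts are therefore given beside the results. The part of these differences in the results was not tested. In bulk liver, fewer hepatocytes and less RNA per hepatocyte cannot be told apart. Each library was taken as a separate mouse, and p-values measure only the spread between these samples.

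Levels between genes were compared as CPM per kilobase of exon (CPM/kb). Ces3a was the most abundant transcript of the 10 in 3 of the groups, with 389.7 ± 180.2 CPM/kb in Ahr-null males, 567 ± 38.3 in control males and 449 ± 97.9 in control females (SD, n = 3 each). In Ahr-null females Ces1c came first, with 306 ± 199 CPM/kb, ahead of Ces3a with 159 ± 91.3 CPM/kb, and these neighbours did not differ beyond their spread. That order rested on Ahr-null female replicate 1, where Ces1c made up 72.2% and Ces3a 8.58% of the summed level per kilobase. In replicates 2 and 3 of that group Ces1c made up 38.9% and 30.1%, against 34.4% and 38.2% for Ces3a. In the other groups Ces1c was second, with 181 ± 72.1 CPM/kb in Ahr-null males, 159 ± 19.4 in control males and 292 ± 64.9 in control females. Ces3b came next in those groups, with 61.9 ± 47.6 CPM/kb in Ahr-null males, 79.7 ± 25.8 in control males and 90.0 ± 37.7 in control females. Ces1d, Ces1e, Ces1f, Ces1g and Ces2a lay between 10.3 and 57.5 CPM/kb in group means, and many of these neighbours did not differ beyond their spread. Ces2c and Ces2e took the last places in every group, between 4.17 and 12.6 CPM/kb.

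**Figure D1:**
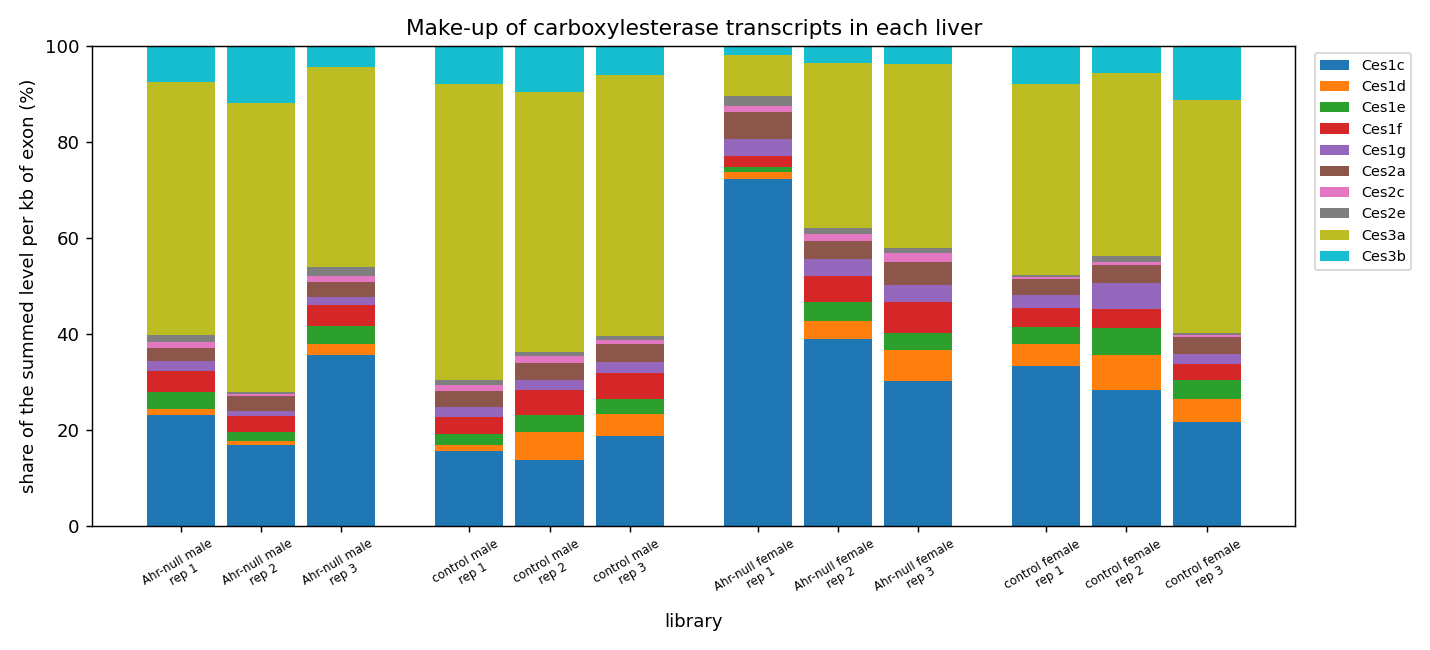
Share of the summed level per kilobase of exon (percent, y axis) that each of the 10 carboxylesterase genes took in each of the 12 livers (x axis). Ces3a and Ces1c made up most of every bar, and the bar with the largest Ces1c share, 72.2%, is Ahr-null female replicate 1.

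The first comparison set Ahr-null against control livers, averaged over the sexes. The fitted levels of the lipid-hydrolysing Ces1d, of Ces1e, Ces1g, Ces3a and Ces3b had the most negative log2 fold changes, between -1.63 for Ces1d and -0.79 for Ces1g. Those of Ces1c, Ces2c and Ces2e lay between 0.09 and 0.13. No member passed an adjusted p of 0.05 in edgeR's quasi-likelihood test with all 12 libraries, where 1.06% of the 13641 genes tested did. At an unadjusted p under 0.05 there were 6 members (Ces1d, Ces1e, Ces1f, Ces1g, Ces3a and Ces3b), where 15.3% of all genes were past it, all with negative log2 fold changes. DESeq2 called 5 of the 10, all lower (Ces1d, Ces1e, Ces1g, Ces3a and Ces3b), against 4.87% of genes called in either direction, with adjusted p between 0.00497 for Ces1d and 0.0317 for Ces3a. Neither limma-voom (0.836% of genes called) nor limma on the deposited log2 values (1.11%) called a member, and their count was 0. Fitted log2 fold changes were negative for 7 of the 10, with a median of -0.70, against 0.04 over all genes tested. Without Ahr-null female replicate 1 and control male replicate 1, edgeR called 3 members, Ces1d, Ces1e and Ces1g, all lower, where 3.14% of genes were called in either direction. The median of the 10 was then -0.76, against 0.03 over all genes. Single libraries also moved calls. Ces1d had a log2 fold change of -1.85 (adjusted p = 0.0475) without control male replicate 1, where 0.511% of genes were called. Ces3b had -1.73 (adjusted p = 0.0160) without Ahr-null male replicate 2, where 1.99% were. Without Ahr-null female replicate 1, Ces1e had -0.78 (adjusted p = 0.0387) and Ces1g -0.86 (adjusted p = 0.0297), and 4.78% of genes were called in that fit. Over the 21 alternatives the adjusted p ranged from 0.00497 to 0.293 for Ces1d, from 0.0164 to 0.320 for Ces1e and from 0.0227 to 0.485 for Ces1g. It ranged from 0.0317 to 0.403 for Ces3a and from 0.00983 to 0.307 for Ces3b, and all 5 kept a negative sign throughout.

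Ces1d, the triacylglycerol hydrolase that mobilises stored triacylglycerol for VLDL, had the most negative averaged log2 fold change of the 10. It had 15.7, 20.0 and 37.1 CPM in Ahr-null males, against 27.1, 151 and 105 CPM in control males. The values were 26.9, 41.4 and 97.8 CPM in Ahr-null females, against 116, 163 and 129.9 CPM in control females. The female groups did not overlap. The male groups overlapped through control male replicate 1, which was the lowest of the controls and held neural transcripts. The averaged log2 fold change was -1.63 ± 0.42 (SE; 95% interval -2.53 to -0.72; adjusted p = 0.0905, edgeR). It was -1.96 ± 0.60 in males (adjusted p = 0.467) and -1.30 ± 0.59 in females (adjusted p = 0.337). With 1 library left out, the female value ranged from -2.002, without Ahr-null female replicate 3, to -0.95. In the 10 libraries Ces1d fell, with a log2 fold change of -1.67 ± 0.30 (adjusted p = 0.0112) averaged over the sexes and of -2.38 ± 0.41 (adjusted p = 0.0341) in males. Its value in females there was -0.95 ± 0.42 and did not pass (adjusted p = 0.211, edgeR).

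Ces1e encodes egasyn, which holds beta-glucuronidase in the endoplasmic reticulum. It had 39.9, 41.5 and 61.3 CPM in Ahr-null males, against 45.8, 88.8 and 69.5 CPM in control males. In females it had 18.6, 43.8 and 50.3 CPM in Ahr-null livers, against 86.8, 116 and 95.9 CPM in control livers. The female groups were apart and the male groups overlapped. The averaged log2 fold change was -0.96 ± 0.26 (95% interval -1.53 to -0.39; adjusted p = 0.113, edgeR), with -0.52 ± 0.37 in males and -1.40 ± 0.38 (adjusted p = 0.158) in females. In the 10 libraries Ces1e fell, with a log2 fold change of -0.89 ± 0.19 (adjusted p = 0.0230). Gusb, which encodes beta-glucuronidase itself, had -0.28 ± 0.23 (adjusted p = 0.627) in 12 libraries and -0.10 (adjusted p = 0.829) in 10.

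Ces1g is an esterase whose loss in mice raises hepatic lipid synthesis and VLDL secretion. It had 23.6, 22.5 and 32.2 CPM in Ahr-null males, against 43.5, 57.2 and 48.9 CPM in control males. Ahr-null females had 65.1, 40.8 and 52.8 CPM, against 72.3, 118 and 56.5 CPM in control females. All 3 Ahr-null males lay below all control males, and the female groups overlapped through Ahr-null female replicate 1. The averaged log2 fold change was -0.79 ± 0.22 (95% interval -1.26 to -0.31; adjusted p = 0.117, edgeR). In the 10 libraries Ces1g fell, with a log2 fold change of -0.90 ± 0.22 (adjusted p = 0.0408).

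Ces1f, another triacylglycerol hydrolase of the endoplasmic reticulum, had 73.2, 109 and 102 CPM in Ahr-null males, against 110.1, 190.3 and 174 CPM in control males. The values were 52.9, 86.3 and 138 CPM in Ahr-null females, against 142, 122 and 125 CPM in control females. The male groups were apart by a narrow gap, and the female groups overlapped. Its averaged log2 fold change was -0.61 ± 0.25 (95% interval -1.16 to -0.07; adjusted p = 0.260 in edgeR), and -0.56 (adjusted p = 0.128) in the 10 libraries.

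Ces1c encodes a carboxylesterase secreted into the plasma of mice. It had 272, 385 and 601 CPM in Ahr-null males, against 331, 358 and 419 CPM in control males. In females it had 1245, 438 and 449.8 CPM in Ahr-null livers, against 852, 615 and 572 CPM in control livers. Groups overlapped in both sexes, and the highest value of the series was that of Ahr-null female replicate 1. The averaged log2 fold change was 0.12 ± 0.31 (95% interval -0.55 to 0.80; adjusted p = 0.901, edgeR), and it was -0.23 in the 10 libraries, with the sign turned.

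**Figure D2:**
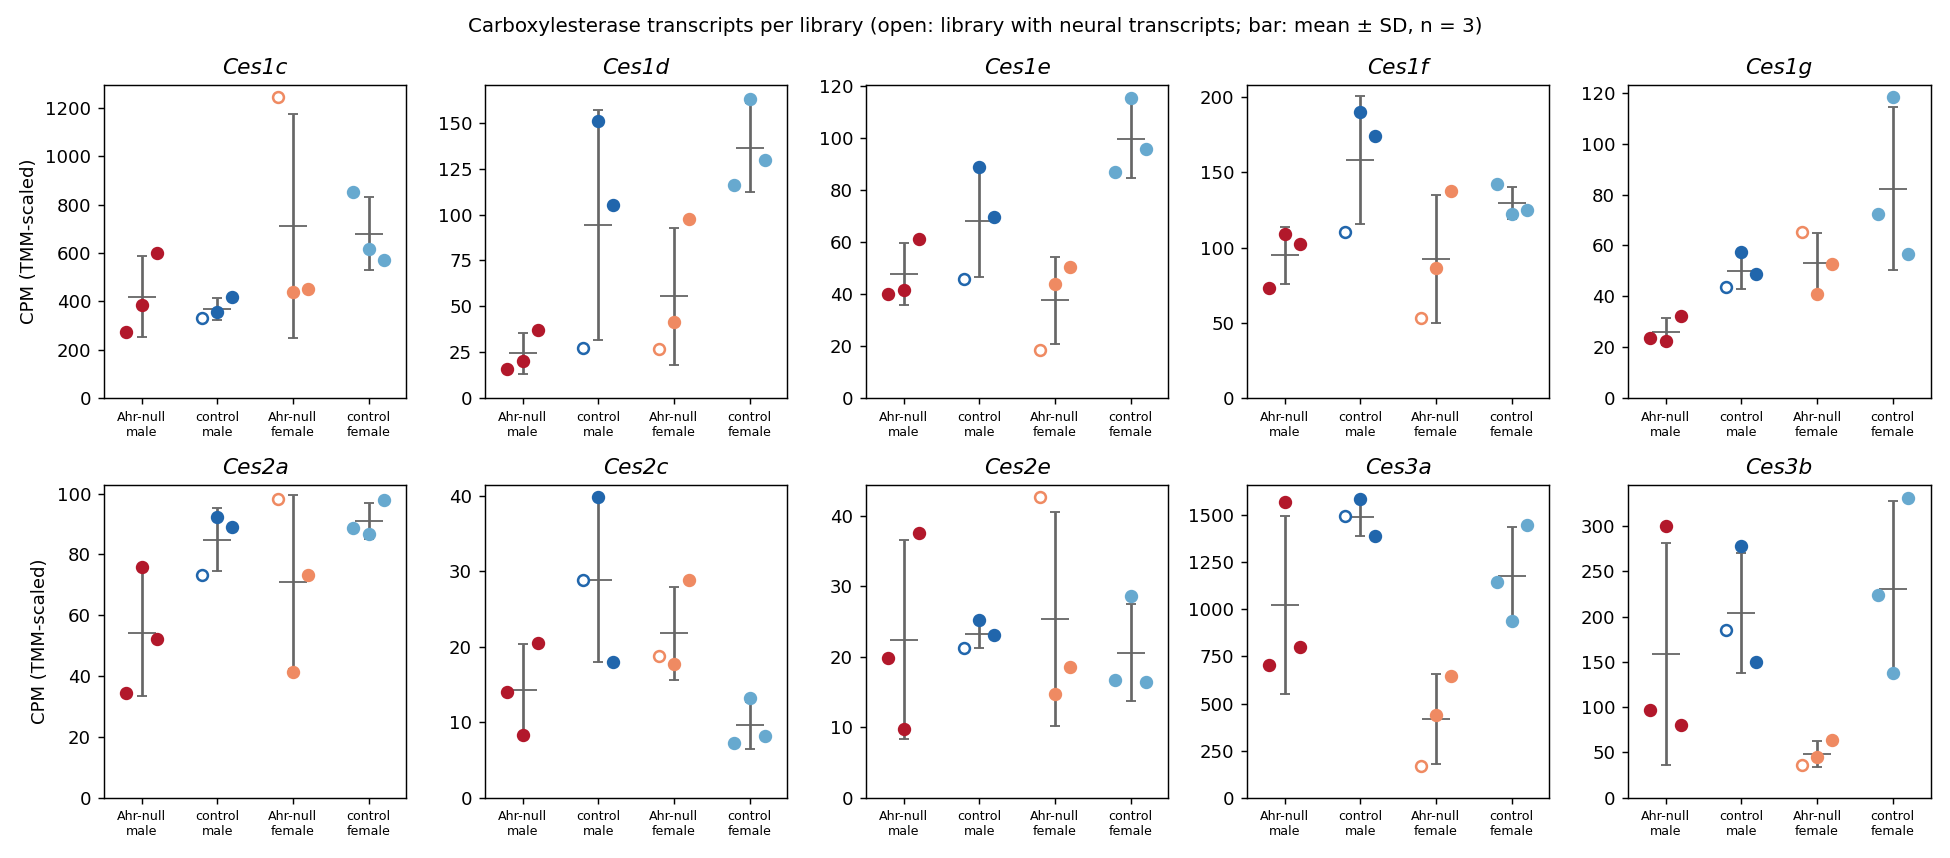
CPM after TMM scaling (y axes, each from 0) of the 10 genes in each library of the 4 groups (x axes), with bars for the mean ± SD (n = 3); open points are the 2 libraries with neural transcripts. Ces1f and Ces1g in males and Ces1d, Ces1e, Ces3a and Ces3b in females lie lower in every Ahr-null liver than in any control liver of that sex, and Ces2c in females lies higher.

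The Ces2 enzymes hydrolyse acylglycerols and many drugs, and rodent Ces2 genes are known to be induced through xenobiotic-sensing receptors. Ces2a had 34.4, 75.8 and 52.3 CPM in Ahr-null males, against 73.1, 92.3 and 89.1 CPM in control males. Ahr-null females had 98.4, 41.2 and 73.3 CPM, against 88.6, 86.6 and 97.8 CPM in control females. The groups overlapped in both sexes. Its averaged log2 fold change was -0.50 ± 0.25 (95% interval -1.04 to 0.03; adjusted p = 0.352, edgeR). Ces2e had 19.9, 9.77 and 37.6 CPM in Ahr-null males, against 21.3, 25.3 and 23.1 CPM in control males. The values were 42.7, 14.7 and 18.6 CPM in Ahr-null females, against 16.7, 28.6 and 16.5 CPM in control females. Its control values lay within the range of the Ahr-null values in both sexes, and the averaged log2 fold change was 0.13 ± 0.33 (adjusted p = 0.906, edgeR; -0.18 in the 10 libraries).

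Ces2c is the mouse gene often set beside human CES2, and its averaged log2 fold change of 0.09 ± 0.27 (adjusted p = 0.919, edgeR) joined opposite values in the sexes. It had 14.0, 8.30 and 20.5 CPM in Ahr-null males, against 28.8, 39.8 and 18.0 CPM in control males. In females it had 18.8, 17.7 and 28.9 CPM in Ahr-null livers, against 7.32, 13.2 and 8.24 CPM in control livers. Every Ahr-null female lay above every control female, while the male groups overlapped. The log2 fold change was -1.01 ± 0.38 in males (adjusted p = 0.711) and 1.19 ± 0.39 in females (adjusted p = 0.216). The difference between them, the male minus the female effect, was -2.20 ± 0.55, with an unadjusted edgeR p of 0.00149 and an adjusted p of 0.836. In the 10 libraries it was -2.30 ± 0.59 (adjusted p = 0.468). The sex difference in controls was 1.60 ± 0.39 on the log2 scale, male over female (adjusted p = 0.193), and no control male lay within the female range. Of the gene's 50-base windows, 36.1% are shared, as given above.

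Ces3a and Ces3b encode the liver-enriched Ces3 enzymes. Ces3a had 706, 1568 and 798 CPM in Ahr-null males, against 1495, 1588 and 1387 CPM in control males. Ahr-null females had 167, 438 and 646 CPM, against 1148, 939 and 1450.2 CPM in control females. The female groups were apart, and the male groups overlapped through Ahr-null male replicate 2, which lay among the controls. The averaged log2 fold change was -1.02 ± 0.33 (95% interval -1.74 to -0.30; adjusted p = 0.173, edgeR), with -0.54 ± 0.46 in males and -1.50 ± 0.47 (adjusted p = 0.206) in females. Ces3b had 96.8, 299 and 80.1 CPM in Ahr-null males, against 185, 278 and 149.6 CPM in control males. The values were 36.1, 45.4 and 63.5 CPM in Ahr-null females, against 224, 138 and 331 CPM in control females. As for Ces3a, the female groups were apart and Ahr-null male replicate 2 lay with the control males, above all of them. The averaged log2 fold change of Ces3b was -1.31 ± 0.36 (95% interval -2.08 to -0.53; adjusted p = 0.109, edgeR), with -0.36 ± 0.50 in males and -2.25 ± 0.52 (adjusted p = 0.112) in females. In the 10 libraries the averaged values were -0.82 ± 0.27 (adjusted p = 0.121) for Ces3a and -1.25 ± 0.38 (adjusted p = 0.0983) for Ces3b. In males the value rested on single libraries: with 1 left out it ranged from -0.98 to -0.33 for Ces3a and from -1.20 to -0.05 for Ces3b, the most negative values without Ahr-null male replicate 2.

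Ces3b made up 8.95% to 17.7% of the counts of the Ces3 pair in Ahr-null livers and 9.74% to 18.6% in control livers. Across the 12 libraries log2 CPM of the pair correlated with r = 0.91, a description over libraries that share depth and over genes that share the sequence printed above. The Ces3 genes lie beside each other, and how much of their joint movement comes from shared reads was not tested.

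**Figure D3:**
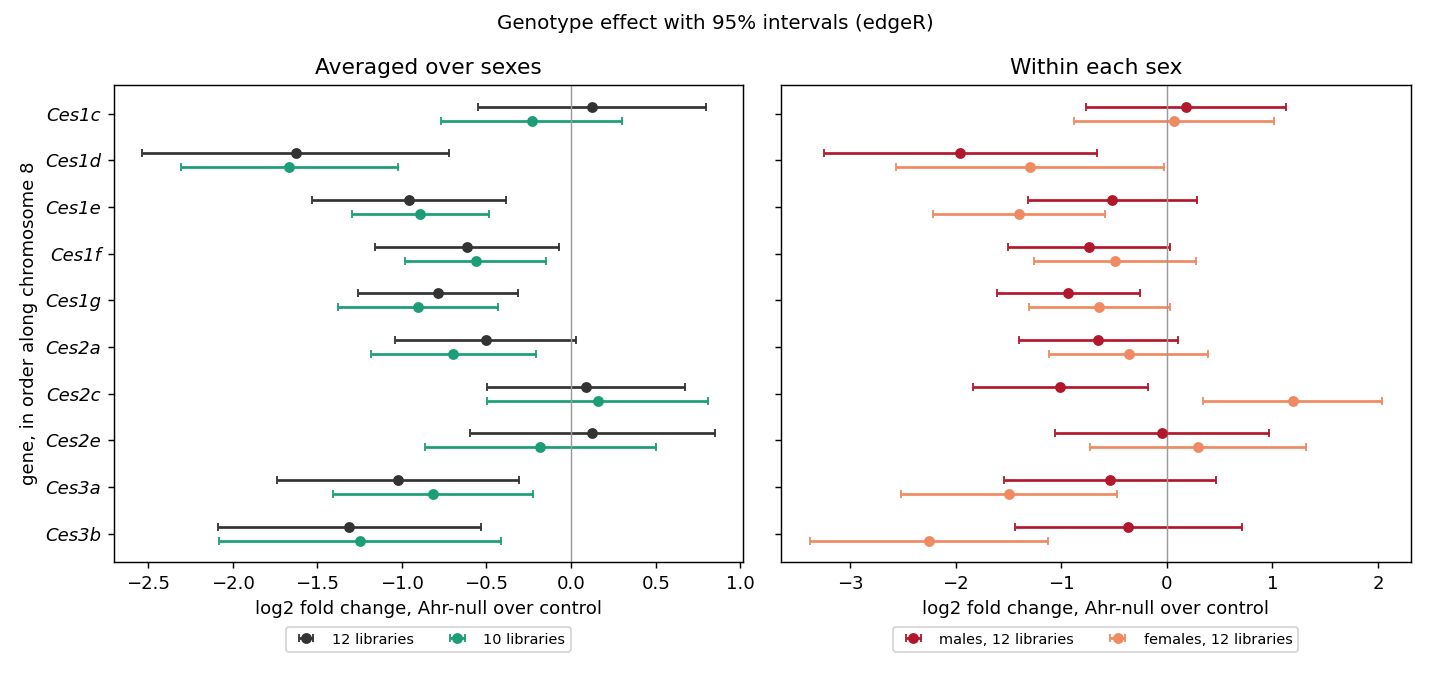
Log2 fold change, Ahr-null over control (x axes), with 95% intervals from edgeR for the 10 genes in chromosome order (y axis); left, averaged over the sexes with all 12 libraries and with the 10 left without those holding neural transcripts; right, in males and in females. The Ces1d to Ces1g and Ces3 estimates lie left of 0 in every fit drawn, and Ces2c lies at -1.01 in males and 1.19 in females.

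Within the sexes, no member passed the adjusted threshold in edgeR with 12 libraries, against 0.0367% of genes in males and 0.161% in females. At an unadjusted p under 0.05 there were 3 members in males (Ces1d, Ces1g and Ces2c), where 5.81% of all genes were past it. In females there were 5 (Ces1d, Ces1e, Ces2c, Ces3a and Ces3b), where 14.4% of genes were. DESeq2 called 0 members in males (0.777% of genes) and 3 in females, all lower (Ces1e, Ces3a and Ces3b; 3.60% of genes), and both limma fits called 0 in either sex. In males limma-voom called 0.0220% and limma on deposited values 0.0586% of genes, and in females 0.242% and 0.367%. Without the 2 libraries with neural transcripts edgeR called 1 in males (0.196% of genes), Ces1d, and 0 in females (1.71% of genes). Without Ahr-null male replicate 2, Ces3b had -2.26 (adjusted p = 0.0378) in females, and 0.407% of genes were called. In females its adjusted p ranged from 0.00132 to 0.387 over the 21 alternatives. In males, 2 members had Ahr-null values wholly below the controls (Ces1f and Ces1g), against 7.34% of all genes. In females 4 did (Ces1d, Ces1e, Ces3a and Ces3b), against 9.86% of genes, and 1 lay wholly above (Ces2c), against 9.22%. No member was apart in the same direction in both sexes, where 2.90% of genes were. For the difference between the sexes in the genotype effect, edgeR called 0 members with 12 libraries (0.00733% of genes), 0 with 10 (0.0291% of genes), and DESeq2 (0.147% of genes), limma-voom (0.00733%) and limma on deposited values (0.0293%) called 0. Only Ces2c and Ces3b were past an unadjusted p of 0.05, where 4.60% of genes were, and Ces3b had 1.89 ± 0.71 (adjusted p = 0.953) for the male minus the female effect, and 1.05 without Ahr-null male replicate 2.

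Sex differences were taken as male over female within each genotype. In Ahr-null livers edgeR called 0 members (0.279% of genes), and 3 were past an unadjusted p of 0.05, where 8.68% of genes were. These were Ces3b with a log2 fold change of 1.71 ± 0.51 (adjusted p = 0.302), Ces3a with 1.30 ± 0.47 (adjusted p = 0.468) and Ces1g with -1.02 ± 0.31 (adjusted p = 0.318). Without Ahr-null male replicate 2, Ces3b had 0.885 and Ces3a 0.858 (adjusted p = 0.807 for both, edgeR). Ces3a and Ces3b were higher in every Ahr-null male than in any Ahr-null female, against 4.83% of genes, and Ces1g was lower, against 6.38%. DESeq2 called 1 of the 10 there, Ces3b, with adjusted p = 0.0379 (1.63% of genes), while limma-voom (0.257%) and limma on deposited values (0.293%) called 0. In control livers edgeR called 0 members (0.352% of genes), and 2, Ces2c and Ces1g, were past an unadjusted p of 0.05, where 5.79% of genes were. DESeq2 called 1 there, Ces2c, with adjusted p = 0.0191 (1.04% of genes), while limma-voom (0.264%) and limma on deposited values (0.433%) called 0. Ces2c was higher in every control male than in any control female (9.38% of genes), and Ces1c was lower (9.19% of genes). With 10 libraries edgeR called 0 members in either genotype, against 0.799% of genes in Ahr-null and 0.574% in control livers.

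**Figure D4:**
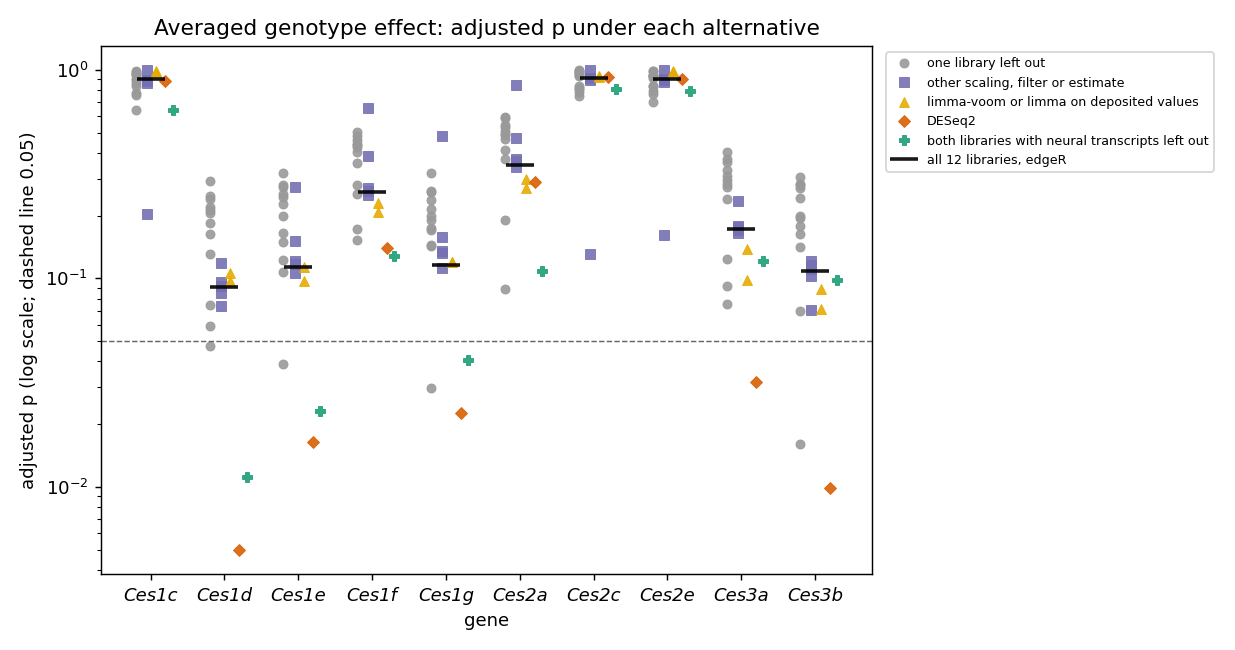
Adjusted p (log scale, y axis) of the averaged genotype effect for each of the 10 genes (x axis) in edgeR with 12 libraries (bar) and under each alternative, with a dashed line at 0.05. Points below the line are found for Ces1d, Ces1e, Ces1g, Ces3a and Ces3b, under DESeq2 or with libraries left out.

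Summed over the 10 genes, carboxylesterase transcripts came to 1295, 2539 and 1823 CPM in Ahr-null males, against 2361, 2868 and 2484 CPM in control males. In females the sums were 1772, 1208 and 1618 CPM in Ahr-null livers, against 2753, 2339 and 2882 CPM in control livers. The female groups did not overlap, while in males Ahr-null replicate 2 lay among the controls. Without Ces3a the female sums were 1604, 769.7 and 972 CPM in Ahr-null livers, against 1606, 1400.0 and 1432 CPM in control livers. Those ranges overlapped through Ahr-null female replicate 1. As a percent of all counts, with no scaling between libraries, the 10 genes made up 0.197%, 0.150% and 0.155% in Ahr-null females, against 0.240%, 0.135% and 0.247% in control females. These ranges overlapped too, through control female replicate 2. In males the unscaled shares were 0.189%, 0.240% and 0.279% in Ahr-null livers, against 0.188%, 0.267% and 0.275% in control livers. The male ranges overlapped, so that the male sums above depend on the scaling between libraries.

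Related gene lists were read in the averaged genotype comparison beside the 1.06% of all genes called with 12 libraries and the 3.14% with 10. Of 10 other carboxylesterase genes, 9 were among the genes counted. Of these, 4 could be tested with 12 libraries and 5 with 10, and 0 were called in either set. With 12 libraries 1 was past an unadjusted edgeR p of 0.05, where 15.3% of all genes were. That gene, Ces1b, the neighbour that shares sequence with Ces1c, had a log2 fold change of -0.59 ± 0.17 (adjusted p = 0.135, edgeR). Unlike the members, Ces1b lay lower in every Ahr-null liver than in any control liver of that sex. Of all genes, 2.90% were apart in the same direction in both sexes. Ces1b had at most 109 CPM in Ahr-null males, against at least 128 CPM in control males. In females it had at most 142 CPM in Ahr-null livers, against at least 203 CPM in control livers. Of 20 other esterases and neutral lipid lipases, 0 were called with 12 libraries and 4 had an unadjusted p under 0.05, a share near that of all genes. With 10 libraries 1 fell, Lipc, the hepatic lipase, with -0.78 (adjusted p = 0.026), named here after its values were seen. With all 12 libraries Lipc ranged from 34.9 to 160 CPM in Ahr-null females and from 88.4 to 109 CPM in control females. Of 15 VLDL assembly and lipid droplet genes tested, 0 were called with 12 libraries and 5 had an unadjusted p under 0.05. Cidec, a droplet-fusing protein, had 2.03 ± 0.62 (adjusted p = 0.150) and Apoa4, an apolipoprotein, 1.42 ± 0.42 (adjusted p = 0.145). Dgat2, which makes triacylglycerol, had -0.56 ± 0.20 (adjusted p = 0.200), and it fell, with -0.70 ± 0.17 (adjusted p = 0.0414) in the 10 libraries. Of 13 genes taken as regulators of carboxylesterase genes, Ahr and Arnt among them, 0 were called with 12 libraries and 4 had an unadjusted p under 0.05. Nr1i3, the constitutive androstane receptor, had 9.55 ± 5.67 CPM in Ahr-null and 29.7 ± 11.4 CPM in control livers of males (mean ± SD, n = 3 each). In females it had 13.4 ± 10.3 CPM in Ahr-null and 54.6 ± 16.4 CPM in control livers. Its log2 fold change was -1.83 ± 0.45 (adjusted p = 0.0798, edgeR), and it fell, with -1.72 ± 0.30 (adjusted p = 0.0112) in the 10 libraries. Cebpa, a hepatocyte transcription factor, was the other regulator called there, with -0.69 (adjusted p = 0.0491), named after its values were seen. With all 12 libraries Cebpa ranged from 95.4 to 244 CPM in Ahr-null females and from 145 to 194 CPM in control females. The hepatocyte marker sums had a median of 32552 CPM in Ahr-null and 18942 CPM in control libraries on the unscaled values, and a median log2 fold change of 0.35 on the scaled ones.

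For the 3 members with the smallest p, the genes of most similar log2 CPM over the 10 libraries were listed, with Pearson's r as a description over libraries that share genotype and depth. Inmt (r = 0.95), Vnn1 (0.94) and Klhl5 (0.93) stood nearest to Ces1d, with 0.88, 0.78 and 0.85 over all 12 libraries. Klf9 (0.96), Adh7 (0.95) and Slc29a1 (0.95) stood nearest to Ces3b, with 0.59, 0.94 and 0.93 over all 12. Rhbg (0.96), Pdk1 (0.94) and Dhrs1 (0.94) stood nearest to Ces1e, and over all 12 libraries their r was 0.22, 0.68 and -0.08. For Rhbg and Dhrs1 the likeness to Ces1e was lost when all 12 libraries were used.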

How the data were processed

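RNA of 12 mouse livers was sequenced. Per the submitters' processing notes, the authors used FastQC 0.11.8, Trim Galore 0.6.5, STAR 2.7.8, DESeq2 1.28.1 and the GRCm38 genome. No source used here names the read counter, its strand setting or the annotation. The deposited read count table holds whole, unscaled counts of 27304 genes, 7277 of them with no count. A second deposited table holds log2 values normalised by the authors and was used only for 1 alternative.

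Counts were fitted in R 4.3.3 with edgeR 4.0.16 (filterByExpr, 13641 genes kept, all 10 members among them; TMM scaling; quasi-likelihood test), with a mean per group over all 12 libraries and 8 residual degrees of freedom. P-values were Benjamini-Hochberg adjusted over all genes tested, with a threshold of 0.05. CPM used TMM-scaled totals, and log2 CPM a prior count of 2. Alternatives used DESeq2 1.42.0, limma 3.58.1, other scalings and filters, and libraries left out. Replicate pairs within a group differed beyond sampling noise. On simulated counts for the averaged genotype comparison (13641 genes), 33% of 100 genes changed by 1 on the log2 scale and 86% of 100 changed by 2 were recovered, with 7 false calls. Apart from library size and the genotype change, each simulated gene had the same mean in all libraries. The simulation held no sex difference and no library with neural transcripts, and recovery in the presence of these was not tested.

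The members, the gene lists and the libraries left out were chosen with earlier results of these data known. Named genes were all members, up to 4 genes per list with the smallest p in the averaged comparison, Gusb, and the 3 genes most correlated with each of the 3 members of smallest p. Gene positions and transcripts came from GENCODE M21, which matched 27275 genes. The SE of the averaged effect ran from 0.22 for Ces1g to 0.42 for Ces1d. It was 0.27 for Ces2c and 0.33 for Ces2e, the genes lowest in level per kilobase. TMM assumes that most genes do not differ.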

Additional observations from a re-analysis of the deposited data

How the results depend on the processing

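The 60 results of single members (10 genes in 6 comparisons) were refitted under 20 alternatives planned and 1 added after seeing the data. Of 1260 refitted values, 1193 kept direction and side of the threshold, 19 passed it anew and 48 changed sign. As edgeR called no member with 12 libraries, keeping the side meant staying uncalled, and no call could be lost. The sign changes fell in 17 results, and the cause was not tested. Members called lower for genotype averaged over the sexes numbered 0 in edgeR with 12 libraries, 5 with DESeq2, 3 without the 2 libraries with neural transcripts, and 0 to 2 with 1 library left out, where 0.0419% to 4.78% of all genes were called. In males there was 1 without those 2 libraries. In females there were 3 with DESeq2 and 0 to 1 with 1 library left out, where 0.0207% to 1.10% of genes were called. For sex, DESeq2 called 1 member higher in Ahr-null males and 1 in control males.

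The averaged effect of Ces2e was -0.037 with limma-voom, -0.011 with limma on the deposited values and -0.18 in 10 libraries, and that of Ces1c was -0.23 in 10 libraries. In males Ces2e was 0.54 with library size alone. In females Ces2a was 0.13 with library size alone, Ces1c was -0.070 with limma-voom, -0.10 with limma on the deposited values and -0.59 in 10 libraries, and Ces2e was -0.28 in 10 libraries. The male minus female effect of Ces2e was 0.21 in 10 libraries. For sex in Ahr-null livers Ces2e was 0.20 with library size alone and 0.45 in 10 libraries, and Ces1f was -0.23 in 10 libraries. For sex in controls Ces2a was 0.20 with library size alone and 0.0071 in 10 libraries, and Ces3b was 0.037 with library size alone.

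With 1 library left out, the averaged effect ranged from -0.20 to 0.25 for Ces1c, -0.084 to 0.24 for Ces2c and -0.17 to 0.30 for Ces2e. In males the range was -0.17 to 0.435 for Ces1c and -0.64 to 0.31 for Ces2e, and in females -0.59 to 0.30 for Ces1c and -0.28 to 0.59 for Ces2e. The male minus female effect ranged from -0.25 to 0.79 for Ces1c, -1.12 to 0.052 for Ces1d, -0.54 to 0.17 for Ces1f, -0.60 to 0.0047 for Ces2a and -0.94 to 0.26 for Ces2e. For sex in Ahr-null livers it was -0.23 to 0.47 for Ces1f and -0.75 to 0.45 for Ces2e, and for sex in controls -0.44 to 0.18 for Ces3b.

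Scaling by library size alone moved the median of all genes from 0.04 to 0.53 on the log2 scale in the averaged comparison, with 986 genes called higher and 67 lower, against 72 and 72 with TMM. The median of the members moved from -0.70 with TMM to -0.21 in that comparison, and from -0.56 to -0.03 in females. No paired analysis was possible because the labels number the livers 1 to 12 over the series and give no number shared between groups.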
